A study of Saccharomyces cerevisiae with 8 samples.

Results

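The proteasome subunit genes of *Saccharomyces cerevisiae* and their activator gene *RPN4* were followed in the RNA of 4 strains of an industrial yeast. The genes were taken by their systematic names from the deposited expression table. No expression value entered this rule, but the members were chosen with earlier results of these data known. They were the 14 genes of the core particle, 18 genes of the regulatory particle and *RPN4*, so that 33 of the 6103 genes of the table were described, and all 33 passed the filter on low values. The strains were the haploid ScY01a (*MATa*), derived from a thermotolerant industrial diploid, and its *sin3∆*, *srb2∆* and *mig1∆* derivatives, in each of which the KanMX marker replaced the whole reading frame of the deleted gene. The strains were grown at 30°C for 10 h in YP medium with 200 g/L glucose to early logarithmic phase, and 2 libraries per strain were sequenced. Per the labels the shaking speed was 200 rpm, whereas the methods of the study give 220 rpm. Whether the 2 libraries of a strain came from separate cultures is not stated for 30°C, so that p-values measure the spread between libraries, which may be technical.

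*SIN3*, *SRB2* and *MIG1* were each listed at 0 in both libraries of their own deletion strain and between 17.1 and 84.2 RPKM in the other strains. RPKM, the unit the study names, counts reads per kilobase of gene, scaled to the size of the library. The table is named as TMM-normalized, and whether it holds RPKM or scaled TPM (the share of a transcript among all transcripts) was not settled, so that levels are relative values of this table. Of the 5 genes used as markers of a mating type cells, *MFA1* and *MFA2* were listed at 0 in all 8 libraries. The summed RPKM of the a-cell list was 587 to 612 in the wild type, 174 to 187 in *sin3∆*, 440.3 to 441 in *srb2∆* and 542 to 558 in *mig1∆*, while the 4 alpha-cell markers summed to 27.5 to 43.5 in any library, with *STE3* at most at 0.352. The 138 ribosomal protein genes made up 19.3% to 25.9% of all RPKM in wild type and *mig1∆* libraries, and 41.1% to 42.8% in those of *sin3∆* and *srb2∆*. The part of these differences in the results on the proteasome was tested only through the scalings named beside them.

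The proteasome degrades proteins that carry ubiquitin chains. Its core particle is a barrel of stacked alpha and beta rings, with the catalytic sites on the inner face of some of the beta subunits, and its regulatory particle consists of a base, where a ring of Rpt ATPases unfolds the substrate, and a lid, where Rpn11p removes the ubiquitin. Rpn4p is a short-lived zinc finger activator that binds the proteasome-associated control element (PACE) before most subunit genes and is itself degraded by the proteasome. It accumulates when proteasome capacity falls short, which raises the subunits in concert. Proteasome capacity is part of how yeast survives heat, ethanol and other conditions that damage proteins.

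The PACE elements are shown because they are the sequence feature that the subunit genes share. The exact element GGTGGCAAA was searched on both strands in the 300 bases before the start codon of the R64 reference genome (the laboratory strain S288c, from RefSeq), which could be read for all 33 genes and for 5580 genes in all. It was found for 27 of 32 subunit genes, against 1.25% of all windows. *PUP1*, *PRE5* and *RPN8* held only the core GTGGCAAA, which lies within the exact element and was found in 2.72% of windows, and *RPN10*, *RPN13* and *RPN4* held neither. The 27 elements lay 76 to 175 bases before the start codon with a median of 112, 19 on the strand of the gene and 8 on the opposite strand. The genomic sequence of ScY01a itself was not used here. Below are the elements of *PRE1*, *RPT3* and *PUP3*, which had the lowest and the highest fold changes in *sin3∆*, of *PRE7* and *PRE3*, which had the extremes in *srb2∆*, of *RPN12* as an element on the opposite strand, and of *PUP1* with the core alone, each with the match in capitals and 10 bases on either side, written in the direction of the gene.
PRE1 (chrV:177683-177711, plus strand): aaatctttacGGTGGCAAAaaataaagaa
RPT3 (chrIV:1261495-1261523, plus strand): ctgaaagtaaGGTGGCAAAatagtaaatc
PUP3 (chrV:349511-349539, minus strand): tggcactgccGGTGGCAAAaaagtgcaaa
PRE7 (chrII:141150-141178, plus strand): aaactcaaagGGTGGCAAAaacaagcggt
PRE3 (chrX:435035-435063, plus strand): aacggaatccGGTGGCAAAaaagggaaaa
RPN12 (chrVI:252398-252426, plus strand): ctacacattaTTTGCCACCcattgaaatt
PUP1 (chrXV:631891-631918, minus strand): acccggccgaGTGGCAAAataccaaaaa

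The *RPN4* gene was searched for sites of factors known to act on it, the Yap1p site TTACTAA, the Pdr1p and Pdr3p site TCCGCGGA, and the paired heat shock units GAANNTTC and TTCNNGAA. Within 300 bases before the start codon, 2 overlapping heat shock pairs were found (22.5% of all windows held at least 1 pair) and neither the Yap1p site (8.03% of windows) nor the Pdr1p and Pdr3p site (0.197%). These 2 pairs ended only 14 and 9 bases before the start codon. Whether they lie in the promoter or in the transcribed part of the gene was not tested. Within 600 bases a Yap1p site and 2 more overlapping heat shock pairs appeared next to each other, and windows of this length held them in 13.8% and 41.3% of all genes. No Pdr1p and Pdr3p site appeared there either (0.771% of windows), but only its exact sequence was searched, so that variants of it would be missed. The Yap1p match ended 368 bases and the nearer of these 2 further heat shock matches 336 bases before the start codon, as the following stretches of the minus strand show.
RPN4, Yap1p site (chrIV:417066-417092): gtgatcgctaTTACTAAtagccgttta
RPN4, heat shock units (chrIV:417034-417061): gatggttctaGAAAGTTCcgtttcggcg

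In all strains the subunit genes were strongly expressed and close to each other in level. A subunit gene lay between 95.3 and 472.5 RPKM in any library, and the median over the 32 genes stood at the 87.2nd to 91.9th percentile of all genes tested. The highest subunit exceeded the lowest 2.97 to 4.11 times within a library. The lowest was the lid gene *RPN7* in the wild type, *srb2∆* and *mig1∆* and the lid gene *RPN9* in *sin3∆*, and the highest was *PRE3*, a catalytic beta subunit, in the wild type and *mig1∆* and the alpha subunit *SCL1* in the other strains. Core particle genes exceeded regulatory particle genes, with a ratio of their median RPKM of 1.41 ± 0.03 (SD, n = 2) in the wild type, 1.56 ± 0.01 in *sin3∆*, 1.46 ± 0.03 in *srb2∆* and 1.41 ± 0.01 in *mig1∆*. The 2 libraries of a strain differed for the median subunit by 2.61% (*srb2∆*) to 6.24% (*mig1∆*), and at most by 23.5% for *PUP3* in the wild type.

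**Figure D1:**
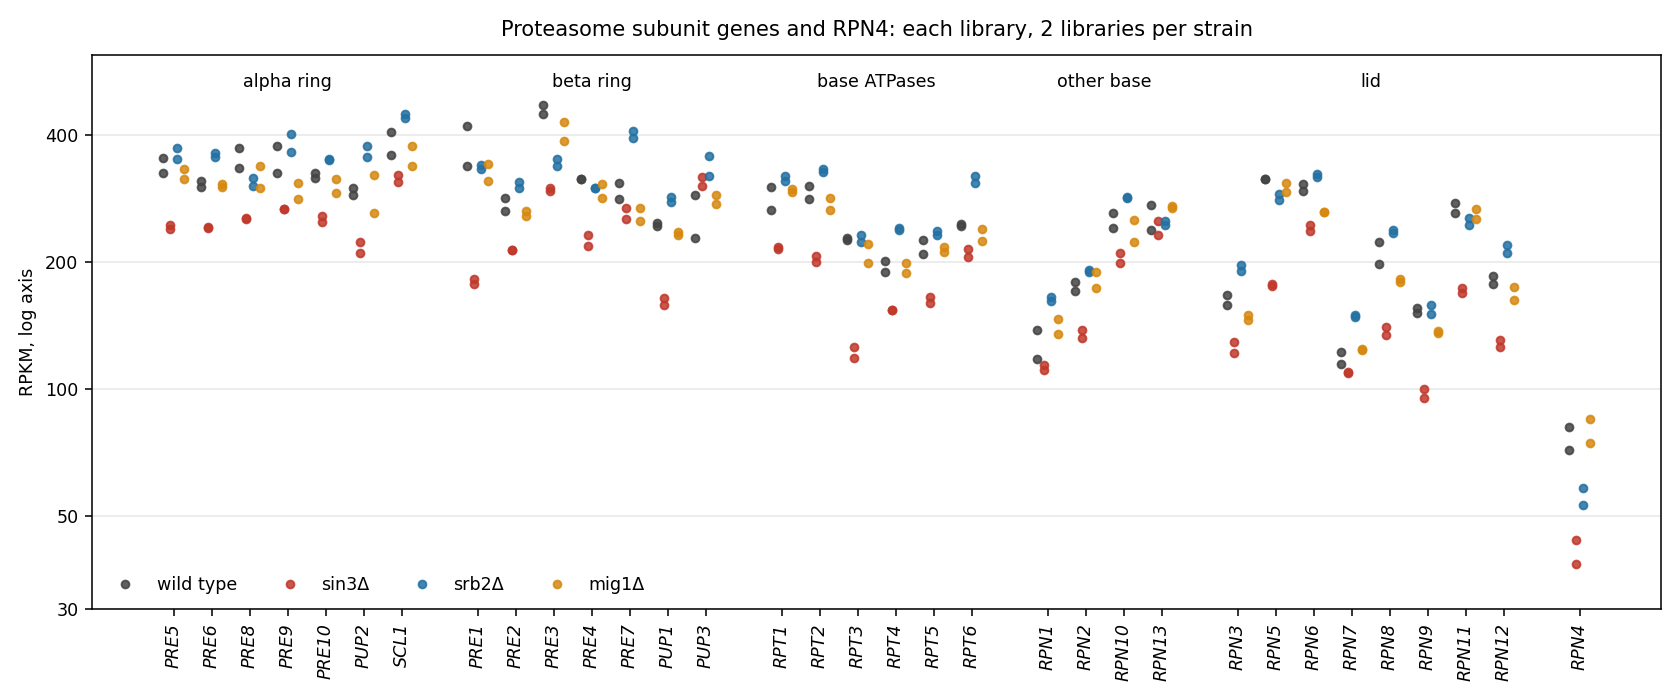
RPKM on a log axis of each of the 32 subunit genes, grouped by subcomplex, and of *RPN4*, with a point for each of the 2 libraries of a strain. The *sin3∆* points have the lowest mean for all subunits but *PUP3* and *PRE7*, the *srb2∆* points are the highest for 25 genes by their mean, and *RPN4* is below every subunit in all libraries.

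Ordered by the mean of a strain, *sin3∆* was the lowest of the 4 strains for 30 of 32 subunit genes and *srb2∆* the highest for 25. The median over the subunits was 273 and 275 RPKM (wild type), 212 and 206 (*sin3∆*), 300.01 and 305 (*srb2∆*) and 259 and 267 (*mig1∆*). The libraries of *sin3∆* thus lay below and those of *srb2∆* above all others, and those of *mig1∆* lay below the wild type by less. As a share of the summed RPKM, the subunits made up 0.908% to 0.984% (wild type), 0.553% to 0.566% (*sin3∆*), 0.863% to 0.887% (*srb2∆*) and 0.873% to 0.898% (*mig1∆*). Relative to the sum without ribosomal protein genes, the shares were 1.17% to 1.22%, 0.940% to 0.961%, 1.51% to 1.53% and 1.18%, in the same order, so that *srb2∆* stood below the wild type on the first scale and above it on the second. The values are relative to the other RNA of a bulk culture, and a change of total RNA per cell cannot be told apart from a change of these genes.

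*RPN4* (YDL020C, chromosome IV from 415113 to 416708 in R64) was expressed at a lower level than any subunit gene. Its RPKM was 81.3 and 71.9 (wild type), 38.5 and 43.85 (*sin3∆*), 53.1 and 58.3 (*srb2∆*) and 84.9 and 74.4 (*mig1∆*). The order was *sin3∆*, *srb2∆*, wild type and *mig1∆*, of which the last 2 overlapped and the others lay apart. Against the wild type the log2 fold change was -0.88 ± 0.11 (SE) in *sin3∆* (adjusted p = 0.000205), -0.45 ± 0.11 in *srb2∆* (adjusted p = 0.00661) and 0.06 ± 0.11 in *mig1∆* (adjusted p = 0.770). The fall in *sin3∆* was therefore past the test but short of 2-fold. The direct difference of *RPN4* between *sin3∆* and *srb2∆* was -0.43 on the log2 scale (adjusted p = 0.0112). When the libraries were scaled without the ribosomal protein genes, the value of *srb2∆* came to -0.22 with an adjusted p of 0.155, so that the call in this strain rests on the scaling. The sign in *mig1∆* turned when wild type replicate 3 or *mig1∆* replicate 1 was left out.

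**Figure D2:**
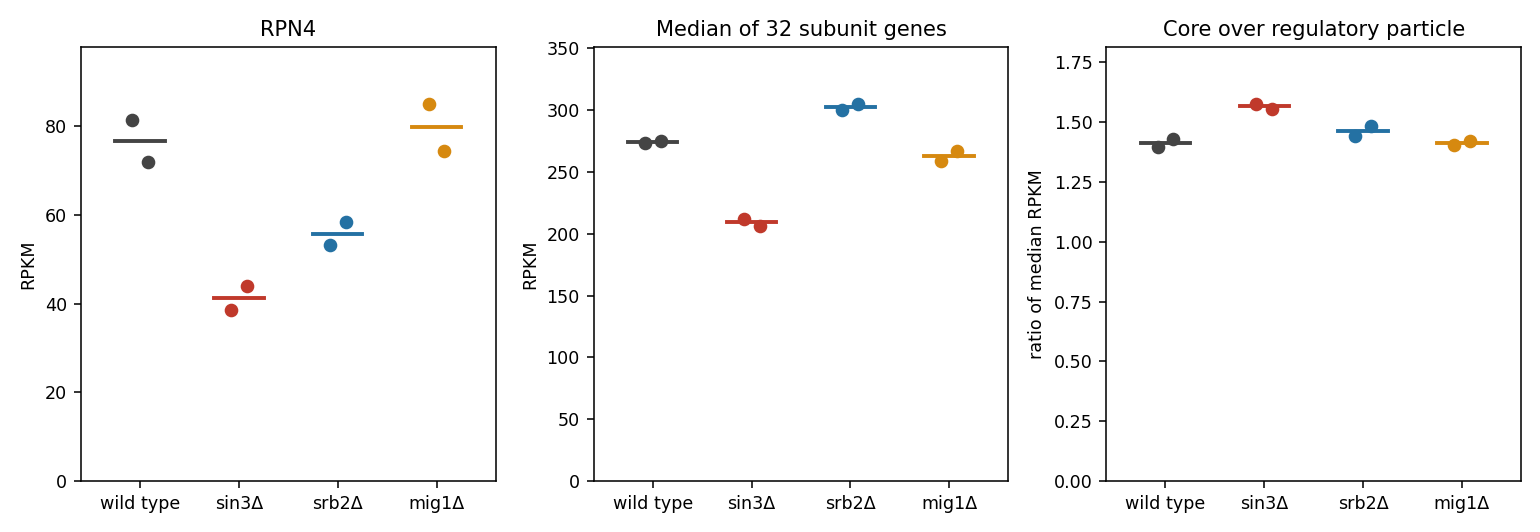
RPKM of *RPN4* (left), median RPKM of the 32 subunit genes (middle) and ratio of the median RPKM of core to regulatory particle genes (right) in each library, with the strain mean as a bar. *RPN4* is lower than the wild type in both *sin3∆* (mean 41.2) and *srb2∆* (mean 55.7), whereas the subunit median is lower in *sin3∆* (mean 209) and higher in *srb2∆* (mean 302).

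Deletion of *SIN3*, which encodes the scaffold of the Rpd3 histone deacetylase complexes, went with lower RNA levels of most proteasome subunit genes. By an adjusted p of at most 0.05, 27 of 32 subunit genes were lower than in the wild type and 0 were higher, where 35.6% of all genes tested were lower and 38.4% higher by this rule. The median log2 fold change of the subunits was -0.39, against 0.01 over all genes, and 31 of 32 fitted values were below 0. The changes were small. With a 2-fold change required as well, the threshold of the study, *PRE1* alone was called lower and 0 were called higher (background 12.2% and 17.7%). Beside the 0 higher genes, 1 subunit, *PUP3*, was higher at an unadjusted p of at most 0.05, a rule whose share of higher genes over all genes was not computed. Both *sin3∆* libraries lay below both wild type libraries for 30 subunits, a pattern that 42.0% of all genes showed.

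By subcomplex and adjusted p, all 7 alpha ring genes, 5 of 7 beta ring genes and all 6 ATPase genes of the base were lower. So were 2 of the 4 other base genes and 7 of 8 lid genes, where 35.6% of all genes tested were lower. Fitted values were below 0 for every gene of these groups but *PUP3* of the beta ring. The median log2 fold change was -0.39 in the alpha ring, -0.48 in the beta ring, -0.40 for the ATPases, -0.24 for the other base genes and -0.56 in the lid. The alpha ring, which forms the gated outer face of the barrel, moved within a narrow range from -0.28 (*SCL1*) to -0.49 (*PRE5*), whereas the beta ring spread from -1.06 to 0.28.

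*PRE1* (YER012W, chromosome V from 177835 to 178431), a beta subunit without a catalytic site, had the largest fall. Its RPKM was 339 and 419.8 (wild type), 182 and 177 (*sin3∆*), 341 and 333 (*srb2∆*) and 311 and 342 (*mig1∆*). The *sin3∆* libraries stood apart, the level fell by 52.6% from the wild type mean, with a log2 fold change of -1.06 ± 0.11 (SE, adjusted p = 6.91e-05), and the wild type libraries differed from each other more than those of any other strain. Without wild type replicate 3 the value was -0.91, under 2-fold, and *PRE1* then kept its adjusted p but not the 2-fold call. It was also under 2-fold when libraries were scaled without ribosomal protein genes (-0.97) or set against *mig1∆* instead of the wild type (-0.86).

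*RPT3* (YDR394W, chromosome IV from 1261681 to 1262967), an ATPase of the base, followed. It stood at 228 and 226 RPKM (wild type), 126 and 119 (*sin3∆*), 224 and 232 (*srb2∆*) and 199.6 and 221 (*mig1∆*), a log2 fold change of -0.89 ± 0.07 in *sin3∆* (adjusted p = 2.67e-05). Only *sin3∆* left the range of the wild type by a wide margin. *RPN5* (YDL147W), a scaffold subunit of the lid, was at 315 RPKM in both wild type libraries, 178 and 175 (*sin3∆*), 289.8 and 282 (*srb2∆*) and 308 and 294 (*mig1∆*). Its log2 fold change in *sin3∆* was -0.83 ± 0.06 (adjusted p = 1.38e-05). The lid genes *RPN9* (YDR427W), *RPN11* (YFR004W), which encodes the deubiquitinase, and its partner *RPN8* (YOR261C) fell by 0.65, 0.65 and 0.61 on the log2 scale.

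The genes of the catalytic subunits all fell in *sin3∆*. *PUP1* (YOR157C), whose product cleaves after basic residues, was at 244 and 247 RPKM (wild type), 158 and 165 (*sin3∆*), 286 and 278 (*srb2∆*) and 232 and 236 (*mig1∆*). *PRE3* (YJL001W), whose product cleaves after acidic residues, was at 448 and 473 (wild type), 294.5 and 299.5 (*sin3∆*), 338 and 352 (*srb2∆*) and 389 and 430.4 (*mig1∆*). *PRE2* (YPR103W), whose product cleaves after hydrophobic residues, was at 265 and 283 (wild type), 214 and 213 (*sin3∆*), 300.1 and 309.8 (*srb2∆*) and 257 and 265 (*mig1∆*). The log2 fold changes in *sin3∆* were -0.60 ± 0.06, -0.63 ± 0.07 and -0.36 ± 0.06 for *PUP1*, *PRE3* and *PRE2*, with adjusted p of 6.91e-05, 0.000169 and 0.00168.

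The 5 subunit genes that did not pass the test in *sin3∆* were *PUP3* (0.28), *PRE7* (-0.18), *RPN1* (-0.18), *RPN7* (-0.11) and *RPN13* (-0.08), given as log2 fold changes. *PUP3* (YER094C), a beta subunit gene, was the only one fitted above 0. It was at 288.3 and 228 RPKM (wild type), 318 and 304 (*sin3∆*), 320.5 and 358 (*srb2∆*) and 274 and 289 (*mig1∆*). Both *sin3∆* libraries were above the wild type libraries, which lay far apart from each other, and the adjusted p was 0.0640. Without wild type replicate 2 the fold change was 0.45 with an adjusted p of 0.00387, and without wild type replicate 3 it was 0.11 with an adjusted p of 0.298. Scaled without ribosomal protein genes, *PUP3* was higher at 0.37 (adjusted p = 0.0358). *RPN13* (YLR421C), a ubiquitin receptor of the base and one of the genes without a PACE match, was at 238 and 273 RPKM in the wild type and 251 and 233 in *sin3∆*, which overlap. *RPN10* (YHR200W), the other ubiquitin receptor without a match, fell by 0.30 on the log2 scale (adjusted p = 0.0131).

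**Figure D3:**
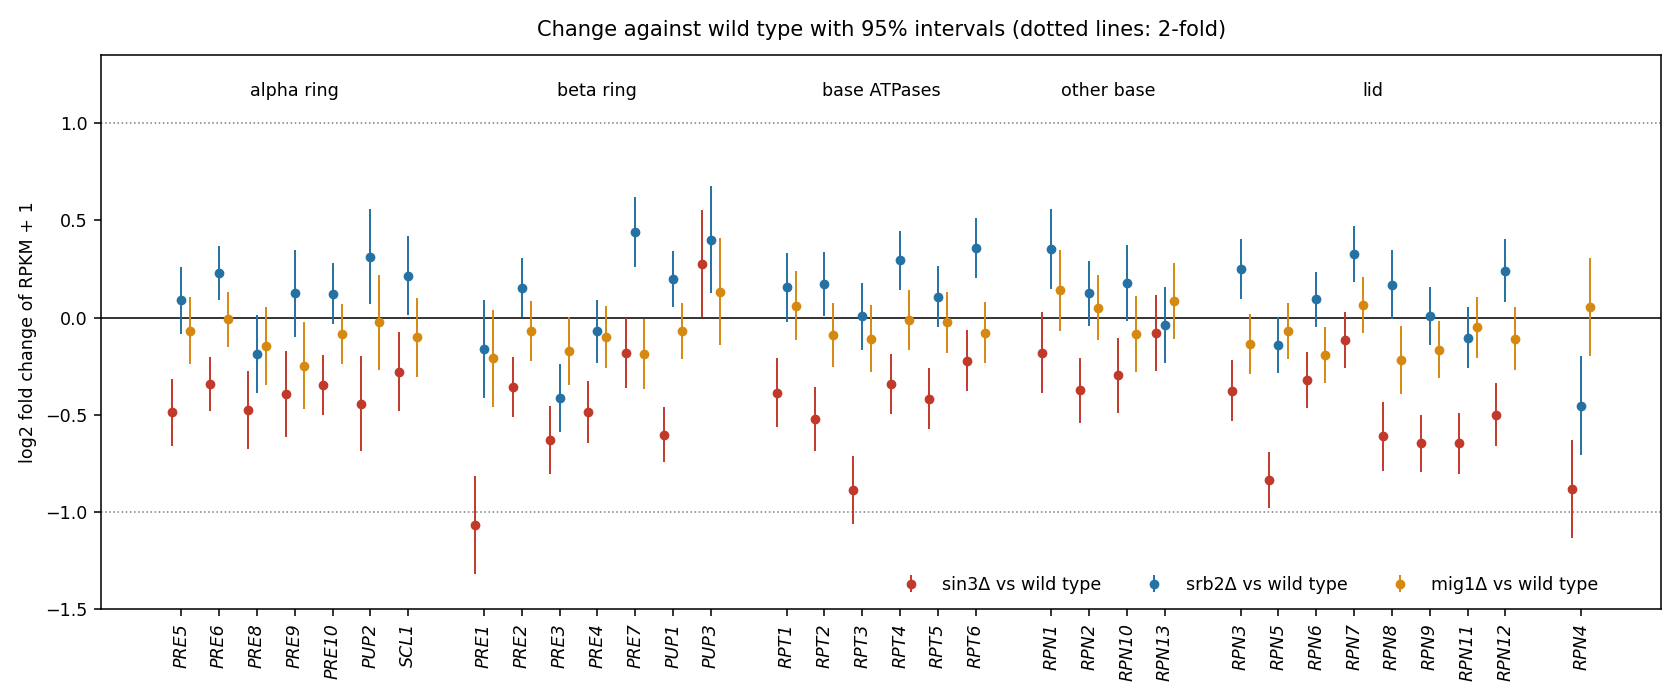
Log2 fold change of RPKM + 1 against the wild type for each gene in *sin3∆*, *srb2∆* and *mig1∆*, with 95% intervals from the limma fit and dotted lines at 2-fold. The *sin3∆* values lie below 0 for all genes but *PUP3*, the *srb2∆* values above 0 for 25 of 32 subunits but not for *RPN4* or *PRE3*, and the *mig1∆* values near 0.

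Deletion of *SRB2*, which encodes a subunit of the Mediator head, went with a lower level of *RPN4* but not of most subunits. The call of *RPN4* did not hold when libraries were scaled without ribosomal protein genes (-0.22, adjusted p = 0.155 in limma). The comparison uses the same wild type libraries as that of *sin3∆*. By adjusted p alone, 11 of 32 subunit genes were higher than in the wild type and 1, *PRE3*, was lower, where 35.5% of all genes tested were higher and 36.3% lower. The share of higher genes among the subunits was thus near the background. With 2-fold required, 0 were called in either direction, against 14.9% lower and 15.0% higher of all genes. At an unadjusted p of at most 0.05, 14 were higher and 1 lower, where 37.3% of all genes were lower. The share of all genes higher by this rule was not computed, so that the 14 cannot be set against it. The median log2 fold change was 0.16, against -0.01 over all genes. Both *srb2∆* libraries lay above both wild type libraries for 21 subunits, compared with 42.1% of all genes.

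The largest rises in *srb2∆* were those of beta ring genes. *PRE7* (YBL041W), a beta subunit gene, was at 309 and 283 RPKM (wild type), 253 and 268 (*sin3∆*), 395 and 409 (*srb2∆*) and 251 and 268.5 (*mig1∆*), a log2 fold change of 0.44 ± 0.08 in *srb2∆* (adjusted p = 0.00129). The *srb2∆* libraries were above all 6 others. *PUP3*, with the values given above, rose by 0.40 ± 0.12 (adjusted p = 0.0166), a value that was 0.23 without wild type replicate 3 (adjusted p = 0.0518) and 0.32 without *srb2∆* replicate 3 (adjusted p = 0.101). The other genes higher by adjusted p, a share near the background as given above, included the ATPase genes *RPT6* (0.36) and *RPT4* (0.30). The rest were the base scaffold gene *RPN1* (0.35), the lid genes *RPN7* (0.33), *RPN3* (0.25) and *RPN12* (0.24), the alpha ring genes *PUP2* (0.31) and *PRE6* (0.23), and the catalytic gene *PUP1* (0.20).

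*PRE3* moved against most other subunits. It fell by 0.41 ± 0.07 on the log2 scale in *srb2∆* (adjusted p = 0.00161), and its *srb2∆* libraries, at 338 and 352 RPKM, were below the wild type and *mig1∆* and above *sin3∆*. The next lowest fitted value was that of the alpha ring gene *PRE8* (YML092C), at -0.19 (adjusted p = 0.0851), with 334 and 373 RPKM (wild type), 253 and 254 (*sin3∆*), 304 and 317 (*srb2∆*) and 301 and 338 (*mig1∆*). The fall of *PRE3* came to -0.18 (adjusted p = 0.0347) with scaling that left out ribosomal protein genes. That scaling moved the median of all genes to 0.21 in *srb2∆*, and the subunit median to 0.39, with 25 subunits higher and 1 lower where 44.8% of all genes were higher and 27.5% lower. Without *srb2∆* replicate 2 the number of higher subunits was 6, where 30.7% of all genes were higher.

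In *mig1∆*, which lacks the repressor of glucose-repressed genes Mig1p, no subunit gene was called in limma. By adjusted p 0 were lower and 0 higher, where 4.71% of all genes were lower and 7.41% higher, and with 2-fold required 0 were called, where 0.657% and 0.995% were. At an unadjusted p of at most 0.05, 5 genes were lower (*PRE7*, *PRE9*, *RPN6*, *RPN8* and *RPN9*) and 0 higher. By this rule 12.1% of all genes were lower, so that the share of lower subunits was near the background. The median log2 fold change was -0.08, against 0.03 over all genes, and 26 of 32 fitted values were below 0. Both *mig1∆* libraries lay below both wild type libraries for 14 subunits, where 23.4% of all genes did.

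The lowest values in *mig1∆* were those of *PRE9* (YGR135W), the alpha subunit that yeast can live without, and of *RPN8*. *PRE9* was at 326 and 378 RPKM (wild type), 267 and 268 (*sin3∆*), 402 and 365 (*srb2∆*) and 283 and 309 (*mig1∆*), a log2 fold change of -0.25 (95% interval -0.47 to -0.02, adjusted p = 0.137). *RPN8* was at 198 and 223 (wild type), 140.2 and 134 (*sin3∆*), 238 and 234 (*srb2∆*) and 182 and 179 (*mig1∆*), a log2 fold change of -0.22 (adjusted p = 0.107). The *mig1∆* libraries of both genes were below those of the wild type. The highest values were those of *RPN1* (YHR027C), a scaffold of the base, at 138 and 118 RPKM (wild type), 111 and 114 (*sin3∆*), 162 and 165 (*srb2∆*) and 146 and 135 (*mig1∆*), and of *PUP3*, with log2 fold changes of 0.14 and 0.13 (adjusted p = 0.342 and 0.496) and libraries that overlapped those of the wild type. Without wild type replicate 2, 3 subunit genes were lower by adjusted p, where 8.58% of all genes were, a share near that of the subunits.

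The direct comparison of *sin3∆* with *srb2∆* set both strains with a high ribosomal share against each other. It shares its libraries with the comparisons above and is given as its own values. Here 30 of 32 subunit genes were lower in *sin3∆* by adjusted p and 0 were higher, where 27.9% of all genes tested were lower and 30.9% higher. With 2-fold required 0 were called in either direction (background 2.95% and 11.9%). At an unadjusted p of at most 0.05 the numbers were again 30 and 0, where 30.1% of all genes were lower. All 32 fitted values were below 0, with a median of -0.54 against 0.01 over all genes, and the libraries of the strains lay apart with *sin3∆* below for 31 subunits, where 41.1% of all genes did so.

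The largest differences between *sin3∆* and *srb2∆* were those of *PRE1* (-0.90), *RPT3* (-0.89), *PUP1* (-0.80) and *RPN8* (-0.78). *PUP3* (-0.12, 95% interval -0.40 to 0.15) and *RPN13* (-0.04, 95% interval -0.23 to 0.16) did not pass the test. *PRE3*, lower than the wild type in both strains, differed by -0.22 (adjusted p = 0.0393), and its adjusted p was between 0.102 and 0.193 when any library of these strains was left out. The log2 fold changes of *PRE7*, *PRE2* and *RPN4* were -0.62, -0.51 and -0.43. For *RPN4* the adjusted p rose to 0.0758 without *sin3∆* replicate 1 and to 0.0722 without *srb2∆* replicate 3. The number of lower subunits was between 28 and 30 whichever of these libraries was left out and under each scaling.

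**Figure D4:**
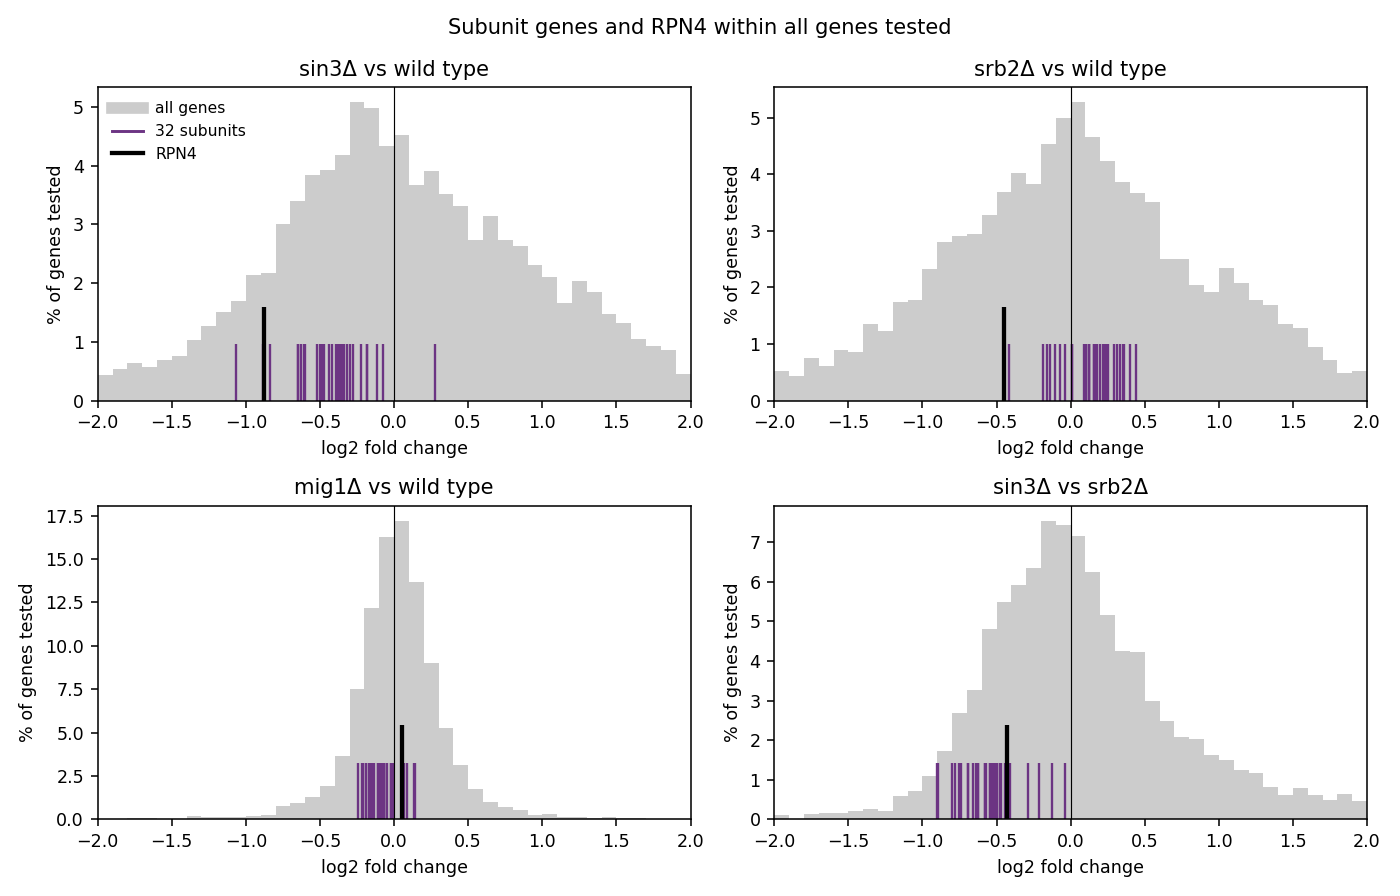
Log2 fold changes of all 5628 genes tested as a percentage of genes per bin (grey), of the 32 subunit genes (purple lines) and of *RPN4* (black line) in 4 comparisons, with values beyond 2 in either direction not drawn. The subunits cluster below 0 in *sin3∆* against the wild type (median -0.39) and against *srb2∆* (median -0.54), slightly above 0 in *srb2∆* (median 0.16) and slightly below it in *mig1∆* (median -0.08).

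The change in *sin3∆* was seen with and without an exact PACE element. Of the 27 subunit genes with the element 23 were lower by adjusted p, and the median log2 fold change of the 27 was -0.39. Of the 5 without it 4 were lower, and their median was -0.49. The genes with the core alone, *RPN8* (-0.61), *PUP1* (-0.60) and *PRE5* (-0.49), were all lower, and *RPN10* (-0.30) and *RPN13* (-0.08), with neither, lay higher. These counts are too small for a comparison. A further 43 genes that encode no subunit held the exact element in their windows, 7 of them because they share the copy with a subunit gene transcribed the other way. Of these 43, 22 were lower and 16 higher than the wild type in *sin3∆* by adjusted p, with values from -2.11 to 2.42 and a median of -0.36, and against *srb2∆* 12 were lower and 13 higher, with a median of 0.04. Of all genes tested 35.6% were lower and 38.4% higher in the first comparison, and 27.9% and 30.9% in the second, so that the share of higher genes in the first and both shares in the second were near the background.

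**Figure D5:**
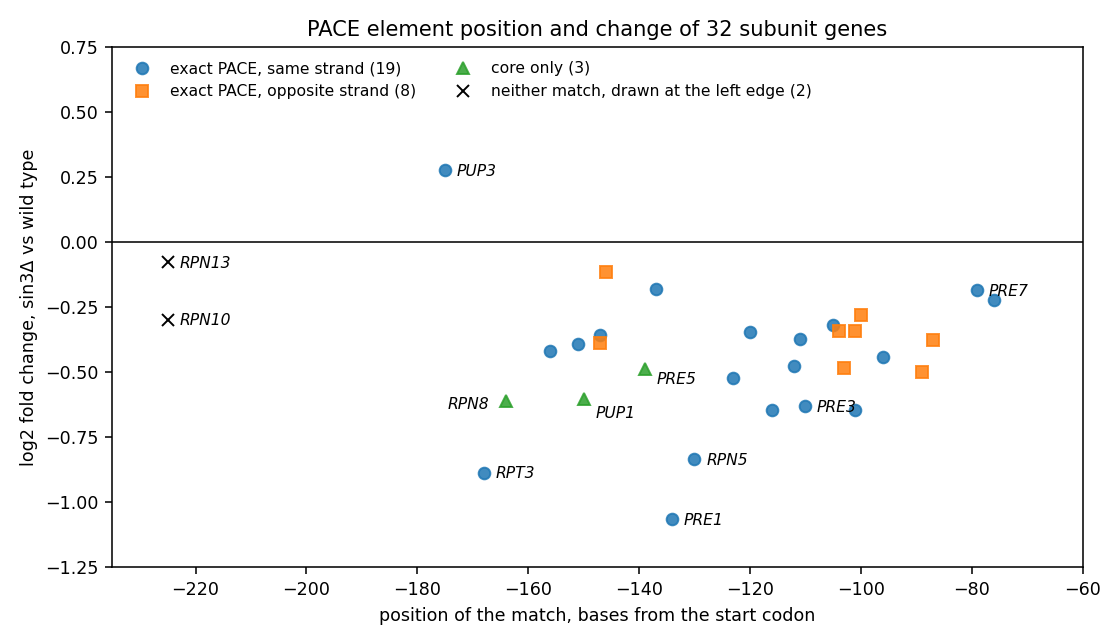
Log2 fold change in *sin3∆* against the wild type of each subunit gene, against the position of its PACE match in bases from the start codon, by the strand and kind of match. The exact and core matches lie 76 to 175 bases before the start codon, and those farthest from it include both *PUP3*, at 0.28, and *RPT3*, at -0.89, with the 2 genes that hold neither match drawn at the left edge.

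Genes that act on Rpn4p or *RPN4* were lower in *sin3∆* for 5 of 8 listed genes and higher for 0, and in *srb2∆* lower for 3 and higher for 2, by adjusted p. Over all genes 35.6% were lower and 38.4% higher in *sin3∆*, and 36.3% and 35.5% in *srb2∆*, so that the share of lower genes in *srb2∆* was near the background. *UBR2* and *MUB1*, which encode the ubiquitin ligase of Rpn4p and its partner, were lower in both strains, with log2 fold changes of -0.97 and -0.66 in *sin3∆* and -1.31 and -0.42 in *srb2∆*. *UBR2* was at 15.1 and 11.1 RPKM (wild type), 6.05 and 6.18 (*sin3∆*) and 4.89 and 4.41 (*srb2∆*), a low level at which the wild type libraries differed. *HSF1*, the heat shock activator, was lower in both strains (-0.87 and -0.96). *YAP1*, whose product acts on *RPN4* in oxidative stress, was at 78.2 and 76.4 RPKM (wild type), 42.3 and 41.7 (*sin3∆*) and 71.5 and 72.5 (*srb2∆*), so that only the *sin3∆* libraries stood well apart (-0.86, adjusted p = 1.76e-05). In *mig1∆* 0 of the 8 genes passed the adjusted test, and *HSF1* passed the unadjusted one.

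Among 18 assembly and accessory factors, 9 were lower and 6 higher in *sin3∆*, 5 lower and 5 higher in *srb2∆*, and 0 were called in *mig1∆*. At an unadjusted p 3 were lower in *mig1∆*, where 12.1% of all genes were. Against the same shares of all genes, the counts in *srb2∆* and that of higher genes in *sin3∆* were near or below the background. *PBA1* (-1.16), a chaperone of alpha ring assembly, *SEM1* (-1.15), a small lid component outside the 32 genes, and *UMP1* (-0.83), the maturation factor of the core, were lower in *sin3∆*, and *ECM29* (1.14), which tethers core and regulatory particles, and *CIC1* (0.87), a factor also known from ribosome assembly, were higher. The wild type libraries of *SEM1*, a short gene, differed from each other by more than the means of the strains did, at 831 and 1627 RPKM against 488 and 559 in *sin3∆*. *ADC17*, a chaperone of the ATPase ring that responds to stress, was at 405 and 462 RPKM (wild type), 256 and 285 (*sin3∆*) and 86.2 and 91.5 (*srb2∆*). It was thus lowest in *srb2∆*, with log2 fold changes of -2.27 there and -0.68 in *sin3∆*. In *srb2∆* *CIC1* (1.63), *POC4* (0.93), an alpha ring chaperone, and *SEM1* (-0.88) had the next largest values.

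Of 23 genes for ubiquitin, its conjugation, Cdc48p and shuttle factors, 11 were lower and 6 higher in *sin3∆*, 9 lower and 8 higher in *srb2∆*, and 2 lower (*UBI4* and *UBC5*) and 0 higher in *mig1∆*. Over all genes 35.6% were lower and 38.4% higher in *sin3∆*, so that the share of higher genes on this list was below the background there. In *mig1∆* 4.71% of all genes were lower and 7.41% higher, and both counts in *srb2∆* were near the shares of all genes given above. The ubiquitin genes divided by type. *UBI4*, the polyubiquitin gene induced by stress, was at 558 and 535 RPKM (wild type), 180.02 and 184 (*sin3∆*), 78.3 and 83.2 (*srb2∆*) and 411 and 446 (*mig1∆*), with log2 fold changes of -1.58, -2.74 and -0.35. The ubiquitin genes fused to ribosomal proteins rose in *sin3∆*, *RPS31* by 1.63, *RPL40B* by 1.53 and *RPL40A* by 1.24 on the log2 scale, and in *srb2∆* by 1.28, 1.36 and 1.16. *RPL40A* and *RPL40B* encode the same protein, and reads may have been split between them. In *srb2∆* *DOA4*, a deubiquitinase that recycles ubiquitin at endosomes, had a log2 fold change of -1.52. Between *sin3∆* and *srb2∆* the largest differences were those of *HUL4* (1.85), a ubiquitin ligase at 1.76 to 9.63 RPKM in these strains, *SAN1* (-1.28), the ligase of misfolded nuclear proteins, *DOA4* (1.22) and *UBC5* (1.19), a conjugating enzyme.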

How the data were processed

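Total RNA was sequenced in 8 libraries as 150-bp paired-end reads. The deposited RPKM values were made by the authors with RSEM after alignment by Bowtie2 2.2.3 to the transcripts of R64, as the methods and the submitters' processing notes state. The table is named as TMM-normalized, and its sums ranged from 862336 to 1150769 per library. Use of strand in counting is not given in the sources used here. The tables hold normalized values and not read counts, and the study gives its read depth only as an average over libraries, so that no interval that needs the depth of a library was computed and precision is that of 2 libraries per strain. Tables of the authors' own comparisons (fold changes and p-values) were not used.

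Values were taken as log2(RPKM + 1), and a gene was kept where 2 or more of the 8 libraries reached 1 RPKM (5628 genes). The 4 strains were fitted together in limma 3.58.1 (R 4.3.3) with a trended prior and 4 residual degrees of freedom, with Benjamini-Hochberg adjustment over all genes. Fold changes are on the log2(RPKM + 1) scale. A gene passed at an adjusted p of at most 0.05, or, as in the study, with at least 2-fold as well. Values per library were printed for *RPN4*, the catalytic genes, the 2 largest rises and falls per deletion, and genes called against most others, and for *RPN5*, *RPN13* and some genes of other lists that were chosen after their values were seen. Up to 4 called genes per other list and comparison were named by size of change, with further ones named after their values were seen. Members and lists were chosen with earlier results of these data known. Alternatives were other scalings, filters, pseudocounts, fits and thresholds, a replicate block, leaving out each library, and, added after seeing the data, *mig1∆* as control. Plots used Python 3.11.15, pandas 2.3.3 and matplotlib 3.10.9.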

Additional observations from a re-analysis of the deposited data

How the results depend on the processing

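With normalized values alone, no value was weighted by the depth of its library, and 2 libraries per strain left 1-library effects visible in *PRE1*, *PUP3* and *RPN4*. By adjusted p alone the numbers of subunits lower or higher were 27 and 0 (*sin3∆*), 1 and 11 (*srb2∆*), and 30 and 0 (*sin3∆* against *srb2∆*), where the 2-fold rule gave 1 and 0, 0 and 0, and 0 and 0. Without a fold threshold *RPN4* passed at -0.88, -0.45 and -0.43 in these comparisons. In a test against 1.5-fold, 3 subunits were lower in *sin3∆*, where 14.1% of all genes were, so that this share was below the background. In *sin3∆* against *srb2∆* 2 were lower, where 3.78% of all genes were. *RPN4* passed this test in *sin3∆* at -0.88 (adjusted p = 0.0418), but not in *srb2∆* or in *sin3∆* against *srb2∆*.

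Scaling without ribosomal protein genes gave 0 subunits lower by 2-fold in *sin3∆* and 2 in *sin3∆* against *srb2∆*, with subunit medians of -0.30, 0.39, -0.017 and -0.68 in *sin3∆*, *srb2∆*, *mig1∆* and *sin3∆* against *srb2∆*. This scaling moved the median of all genes to 0.10, 0.21, 0.08 and -0.13. Under it *RPN13* came to 0.014 in *sin3∆*, and *PRE1* and *PRE8* to 0.072 and 0.048 in *srb2∆*. Quantile normalization gave medians of -0.42, 0.24, -0.029 and -0.63. With it 20 subunits were higher by adjusted p in *srb2∆*, where 39.3% of all genes were higher and their median was 0.069. Median-ratio scaling gave -0.42 in *sin3∆* and -0.58 in *sin3∆* against *srb2∆*. With *mig1∆* as control, chosen after seeing the data, 0 subunits were lower by 2-fold in *sin3∆*, and the medians were -0.36 and 0.23. *PRE7* came to 0.0049 in *sin3∆* and *PRE1* to 0.047 in *srb2∆*. Against this control 18 subunits were higher by adjusted p in *srb2∆*, where 33.5% of all genes were.

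Leaving out a library gave 0 to 1 subunits lower by 2-fold in *sin3∆*. The medians ranged from -0.41 to -0.39 in *sin3∆*, 0.12 to 0.18 in *srb2∆*, -0.13 to -0.031 in *mig1∆* and -0.56 to -0.55 in *sin3∆* against *srb2∆*. *RPN4* in *mig1∆* ranged from -0.038 (without *mig1∆* replicate 1) to 0.15, with -0.032 without wild type replicate 3. *PUP3* in *mig1∆* ranged from -0.035 (without wild type replicate 3) to 0.30. *RPN13* ranged from -0.18 to 0.021 in *sin3∆* (the latter without wild type replicate 3), and from -0.092 to 0.017 in *sin3∆* against *srb2∆* (the latter without *sin3∆* replicate 2). The cause of these changes was not tested.

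Wild type and *srb2∆* share replicate numbers, but the differences between their replicates 2 and 3 correlated across genes at 0.06, so that the numbers were not taken to pair the libraries. With a replicate block, 1 subunit was lower and 5 were higher by adjusted p in *srb2∆*, and 0 by 2-fold. By adjusted p 33.3% of all genes were lower and 32.2% higher in this fit, so that both shares of the subunits were below the background. *PUP3* was at 0.40 (adjusted p = 0.0667), and *RPN4* was at -0.45 (adjusted p = 0.0227).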

Other observations

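Degradation routes beside the proteasome itself differed between the strains as well. Of 13 genes of ER-associated degradation, 10 were lower and 1 higher in *sin3∆* and 9 lower and 2 higher in *srb2∆* by adjusted p in limma, with medians of -0.72 and -0.89 on the log2 scale, and 0 passed in *mig1∆*, where 0 also passed at an unadjusted p. Over all genes 35.6% were lower and 38.4% higher in *sin3∆*, and 36.3% and 35.5% in *srb2∆*. *DER1* (-2.41 in *sin3∆*, -2.87 in *srb2∆*), a channel component of the ER membrane, *DFM1* (-1.80 and -1.77), its relative, and *HRD1* (-1.51 and -1.34), the ubiquitin ligase, were lower in both strains. *UBC7* (-1.26), the conjugating enzyme, was among the 4 largest in *sin3∆*, and *USA1* (-1.33), a scaffold of the ligase, among those in *srb2∆*. Between *sin3∆* and *srb2∆* 3 were lower and 5 higher, where 27.9% and 30.9% of all genes were, so that both shares were near the background. The largest difference was that of *HTM1* (0.66), a mannosidase that marks misfolded glycoproteins.

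Of 9 vacuolar protease genes, 7 were lower and 1 higher in *sin3∆*, 7 lower and 0 higher in *srb2∆*, and 1 lower in *mig1∆* (*ATG42*, -0.45), where 4.71% of all genes were lower. The shares of all genes were 35.6% lower and 38.4% higher in *sin3∆*, and 36.3% and 35.5% in *srb2∆*. In *srb2∆* the largest falls had log2 fold changes of -2.96 for *LAP4*, an aminopeptidase, and -2.24 for *ATG42*, a carboxypeptidase. *PRB1* (-1.86) and *PEP4* (-1.77), the proteinases that activate the others, followed. In *sin3∆* the largest values were 1.26 for *CPS1*, a carboxypeptidase, -0.94 for *PRC1*, the main carboxypeptidase, -0.77 for *PRB1* and -0.77 for *STE13*, a dipeptidyl aminopeptidase of the Golgi that is on the list. In the direct comparison 7 of the 9 genes were higher in *sin3∆* than in *srb2∆* and 1 was lower (*STE13*, -0.73), where 30.9% and 27.9% of all genes were, the reverse of the proteasome subunits, of which 30 of 32 were lower in *sin3∆*.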
